A study of Mus musculus with 3 samples.

Results

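The 42 genes described here are genes that interferons are known to induce, out of 27998 genes listed in the count files. They were chosen by name from that knowledge, but with earlier results of these data known. Counts of members set beside shares of all genes are therefore description only. Single-cell RNA sequencing had been done on kidneys of mice given FA (folic acid), which injures tubules and leads to fibrosis, and taken at day 14 of that model. Mice aged 6 to 8 weeks carried either a disrupted *Aoah* gene (*Aoah-/-*), backcrossed to C57/BL6J, or were wild-type (WT) littermates. AOAH, acyloxyacyl hydrolase, is an enzyme that removes acyl chains from bacterial lipopolysaccharide. Files of 2 *Aoah-/-* libraries, numbered 2 and 3, and of 1 WT library, numbered 3, were analysed, and a kidney without FA was not analysed here. UMIs (unique molecular identifiers, 1 for each captured RNA molecule) of the 42 genes were summed per library and marker-named cell class and are given per 1000000 UMIs of that class (CPM), gene by gene and as a sum. Whenever 3 values follow each other they stand for *Aoah-/-* 2, *Aoah-/-* 3 and WT, in that order.

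Interferons are cytokines that cells release when sensors of foreign or misplaced RNA or DNA are triggered. Type I interferons signal through IFNAR to the complex ISGF3, which contains STAT2 and IRF9 and binds interferon-stimulated response elements in promoters. Interferon gamma, made mostly by T and natural killer cells, signals through IFNGR to factors that bind gamma activated sites, and it raises IRF1 and the large immunity-related GTPases in particular. Most induced genes respond to both. The 42 genes fall into 9 roles: RNA and DNA sensors, transcription factors, IFIT proteins, the ISG15 system, the OAS family, membrane and capsid restriction factors, IRG GTPases, GBP GTPases and other induced genes.

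The libraries held 25516, 24693 and 23072 barcodes with 167222984, 161015021 and 158551992 UMIs, and 21368, 19692 and 18202 cells were kept after filtering. *Aoah* itself, counted over all barcodes, stood at 6.06, 5.68 and 15.3 CPM. In macrophage-like cells it stood at 3.86, 4.29 and 20.7 CPM and in PTEC-like cells (proximal tubular epithelial cells) at 13.2, 12.3 and 26.4 CPM. It was thus lower but not absent in both *Aoah-/-* libraries. Which part of the gene is deleted is not given in the sources used here, so a 3′ count is a limited check of the genotype. Cells formed 32 clusters, and 15 classes named from their markers held at least 100 cells in every library. Pairs of libraries shared 171 to 176 barcodes. *Aoah-/-* 3 stood apart in having no barcode under 1672 UMIs, where the lowest total was 500 in the other libraries. PTEC-like cells numbered 8279, 4866 and 9538, and all 20 PTEC markers were detected in every library, with a summed level of 59561, 70164 and 68581 CPM. Since only 1 WT library was analysed, no difference between genotypes could be tested, and a difference is given as log2 of the *Aoah-/-* mean divided by WT, ± the SD between the 2 *Aoah-/-* libraries on the log2 scale (n = 2). Single genes are compared on log2(CPM + 1), which understates the change of low genes, and since only 3′ ends were counted their levels do not scale with gene length. Exact Poisson intervals (95%) are given where named and cover counting error only.

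Promoters of many members hold the letters of the 2 elements named above, and 5 promoters are printed here because their genes recur in the results and differ in these elements. RefSeq promoters on GRCm38.p6, from 250 bases before to 50 after the start, were found for 33 of the 42 members. The core of the interferon-stimulated response element, GAAA and GAAA with any 2 bases between them, searched on both strands, was present in 21 of these 33 (63.6%), against 3.99% of the 27025 genes of the table. The gamma activated site TTCNNNGAA, which reads the same on both strands, was present in 12 of 33 (36.4%), against 9.55%. A match of one pattern could share bases with a match of the other and was counted for both. The windows below are the 120 bases directly before the start, 5′ to 3′ on the strand of the gene, with the matched letters of either pattern in capitals. *Ifit1* (chr19:34640769-34640888, plus strand) and *Isg15* (chr4:156200819-156200938, minus strand) held the response element only, *Irf1* (chr11:53769894-53770013, plus strand) the gamma activated site only, *Gbp7* (chr3:142530216-142530335, plus strand) both, and *Lgals3bp* (chr11:118401960-118402079, minus strand) neither in these letters.
Ifit1: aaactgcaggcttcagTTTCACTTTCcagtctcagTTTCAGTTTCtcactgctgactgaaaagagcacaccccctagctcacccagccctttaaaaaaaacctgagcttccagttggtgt
Isg15: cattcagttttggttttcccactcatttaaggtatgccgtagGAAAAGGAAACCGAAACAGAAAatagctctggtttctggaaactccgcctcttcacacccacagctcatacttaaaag
Irf1: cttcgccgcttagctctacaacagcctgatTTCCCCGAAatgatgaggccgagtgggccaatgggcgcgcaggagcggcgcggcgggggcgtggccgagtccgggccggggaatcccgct
Gbp7: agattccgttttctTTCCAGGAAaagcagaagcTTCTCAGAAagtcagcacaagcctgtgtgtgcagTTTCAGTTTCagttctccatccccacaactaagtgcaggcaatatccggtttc
Lgals3bp: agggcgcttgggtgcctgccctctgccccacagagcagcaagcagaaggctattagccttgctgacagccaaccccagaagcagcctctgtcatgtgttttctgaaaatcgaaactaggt
In *Isg15* the capitals cover 3 overlapping matches, and in *Ifit1* and *Gbp7* the response element lies on the opposite strand and therefore reads TTTC and TTTC with 2 bases between them.

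Endothelial-like cells carried the highest level of interferon-induced genes in this injured kidney, in WT as in *Aoah-/-* libraries. Their summed level was 7944, 8542 and 7529 CPM (Poisson interval 7439 to 7619.6 in WT), whereas PTEC-like cells stood at 700.0, 643 and 337 CPM and distal convoluted tubule-like cells at 376, 417 and 309.9 CPM. In WT the order below endothelial-like cells was fibroblast-like, granulocyte-like, macrophage-like, T lymphocyte-like and injured tubule-like cells, with 4832, 3166, 2739, 1889.7 and 1774 CPM. Neighbours in this order often overlapped once all libraries were considered: granulocyte-like cells stood at 2970.5, 2422 and 3166 CPM and macrophage-like cells at 2949, 2961 and 2739 CPM. The small plasmacytoid dendritic-like class, specialised interferon producers with 79, 95 and 64 cells, reached 5553, 5368 and 5649.7 CPM and was not compared between genotypes. Among tubular classes, cells marked by injury genes (*Lcn2*, *Clu*, *Krt18*) stood far above the other segments.

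**Figure D1:**
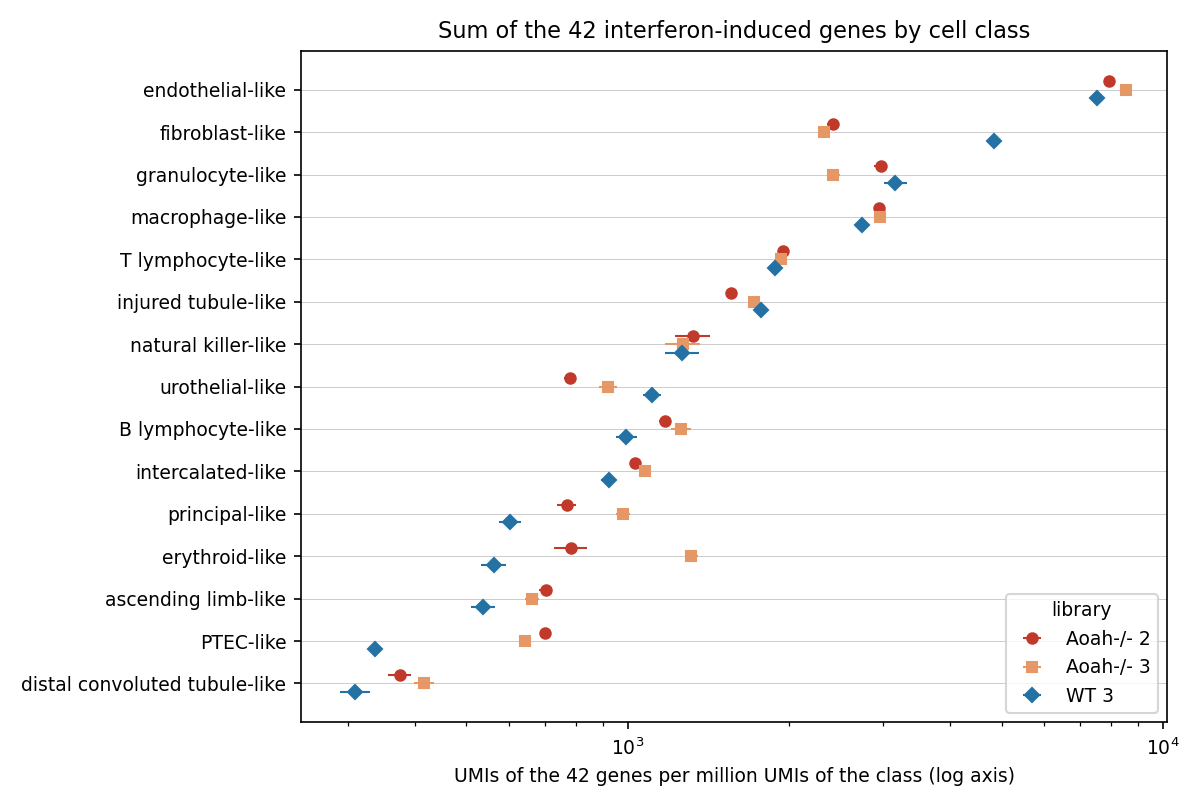
Sum of the 42 interferon-induced genes in each cell class, in UMIs per 1000000 UMIs on a log axis, with 1 point per library and exact Poisson 95% intervals that are often smaller than the point. Endothelial-like cells lie between 7529 and 8542 CPM in all libraries, and PTEC-like cells lie at 700.0 and 643 CPM in the *Aoah-/-* libraries and at 337 CPM in WT.

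Of the 42 members, 27 had their highest mean level in endothelial-like cells, 25 of them in every library, 5 in granulocyte-like, 4 in T lymphocyte-like, 3 in fibroblast-like, 2 in macrophage-like and 1 in B lymphocyte-like cells. *Ifitm3*, a membrane protein that blocks viral entry, reached 2589, 2703 and 2651 CPM in endothelial-like cells but 15.6, 18.2 and 8.09 CPM in PTEC-like cells. *Bst2* (tetherin, which holds budding virus at the cell surface) stood at 681, 777 and 609 CPM and *Rsad2* (viperin) at 669, 802 and 677 CPM in endothelial-like cells. *Ifi44* was concentrated in endothelial-like cells, with 289.9, 326 and 224 CPM against 17.3, 16.2 and 9.90 CPM in injured tubule-like cells, the next class. Among transcription factors *Irf1* was at 289.5, 319.9 and 244 CPM and *Irf7*, which amplifies type I interferon transcription, at 181, 196 and 156 CPM. *Isg15*, a ubiquitin-like modifier, followed another order, being highest in granulocyte-like cells at 441, 415 and 616 CPM and at 247, 291 and 270.1 CPM in endothelial-like cells. *Samd9l*, which restricts viral translation, was the most even member, its highest class mean being 3.48 times its lowest over the 15 classes, followed by *Irgm1* at 4.84 times. *Ifi27*, a mitochondrial protein, was next at 5.97 times, with 380.1, 329 and 319 CPM in fibroblast-like cells and 57.3, 66.6 and 48.4 CPM in principal-like cells.

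PTEC-like cells held more interferon-induced RNA in both *Aoah-/-* libraries than in the WT library. The sum of the 42 genes was 700.0, 643 and 337 CPM, a difference of 0.99 ± 0.09 or 1.99-fold, and the Poisson intervals of 693 to 707, 636 to 650.5 and 333 to 341 CPM did not meet. Both *Aoah-/-* libraries lay close to each other and away from WT. Many members took part: of the 11 members with a mean of at least 10 CPM in this class, 6 were at least 1.5-fold higher in both *Aoah-/-* libraries (*Ddx58*, *Irf1*, *Bst2*, *Ifitm3*, *Ifi27* and *Lgals3bp*), where 1.78% of all genes at that level were, and 0 were lower, where 0.748% of all genes were. Of the higher members, *Ddx58*, *Irf1*, *Bst2* and *Ifitm3* were under 10 CPM in WT and passed the minimum only through the *Aoah-/-* libraries. The minimum was applied to all genes in the same way. When *Aoah-/-* 2 alone was set against WT the count was 10 (2.89% of all genes), and with *Aoah-/-* 3 alone it was 6 (2.3%). The median log2 difference over the 11 members was 0.79 against -0.04 over all genes at that level. Of the other 31 members, which were too low for this count, 20 also met the same ratio, so that 26 of 42 did without a minimum level, where 2.08% of all genes with a UMI in this class did, and 0 went the other way. Cells that held a UMI of any of 8 immune genes (*Ptprc*, *Tyrobp*, *Cd74*, *Lyz2*, *C1qa*, *C1qb*, *Cd3e* and *Cd79a*) were left out as an alternative. The count among members above 10 CPM was then 4 in place of 6 (1.39% of all genes). This also left out any PTEC-like cell with a *Cd74* UMI, whatever the source of that UMI.

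*Ifi27* made the largest contribution. Its level in PTEC-like cells was 200.3, 153 and 52.5 CPM, a difference of 1.73 ± 0.27. *Lgals3bp*, a secreted glycoprotein that binds galectins, followed with 103, 79.5 and 21.4 CPM. It had the largest log2 difference among members above 10 CPM, 2.04 ± 0.26. For both genes the WT library was lowest and *Aoah-/-* 2 highest. Without *Ifi27* the sum still differed by 0.80 and without *Lgals3bp* by 0.88 on the log2 scale, while leaving out *Samd9l*, an abundant member that did not follow the others, raised the difference to 1.41. *Samd9l* stood at 109.9, 151 and 133 CPM in PTEC-like cells, with WT between the *Aoah-/-* libraries.

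Every role of the family was higher in the PTEC-like cells of both *Aoah-/-* libraries. RNA and DNA sensors summed to 30.3, 28.3 and 15.6 CPM, led by *Ddx58* (RIG-I, a sensor of viral RNA) at 16.6, 16.2 and 9.22 CPM, with *Ifih1* (MDA5) at 12.2, 10.3 and 5.86 CPM. Transcription factors summed to 52.0, 39.1 and 20.4 CPM, with *Irf1* at 17.2, 10.9 and 6.53 CPM, *Irf7* at 11.6, 9.44 and 2.58 CPM and *Irf9*, the DNA-binding part of ISGF3, at 13.8, 10.8 and 7.87 CPM. *Irf9* stayed under the ratio of 1.5 in *Aoah-/-* 3. Restriction factors summed to 46.2, 48.2 and 17.2 CPM, of which *Bst2* gave 28.9, 23.6 and 8.11 CPM, a difference of 1.58 ± 0.20. IRG GTPases, which damage the vacuoles of intracellular pathogens, summed to 84.2, 74.9 and 47.1 CPM, and *Irgm1*, a regulator of that group, contributed 41.6, 37.7 and 25.8 CPM. GBP GTPases summed to 26.6, 18.9 and 11.3 CPM, with *Gbp7* at 16.7, 9.80 and 7.27 CPM. The classical antiviral effectors were nearly silent in this class but differed in the same direction: IFIT proteins summed to 8.87, 14.0 and 2.87 CPM, the OAS family to 4.11, 4.68 and 0.935 CPM and *Isg15* to 4.19, 6.01 and 1.43 CPM. Levels of a few CPM mean UMIs in few cells, and *Ifit1*, which binds viral RNA, was at 2.36, 5.24 and 0.588 CPM. Among the other induced genes *Parp14*, an ADP-ribosyltransferase, stood at 7.87, 5.54 and 2.89 CPM. *Xaf1*, which promotes apoptosis, was at 3.93, 3.49 and 2.30 CPM, and *Rtp4*, a chaperone of membrane receptors, at 4.73, 3.21 and 0.641 CPM. *Mx1*, a GTPase that traps viral capsids, and *Gbp6* stood at 0.160, 0.161 and 0.0801 and 2.04, 2.56 and 1.00 CPM.

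**Figure D2:**
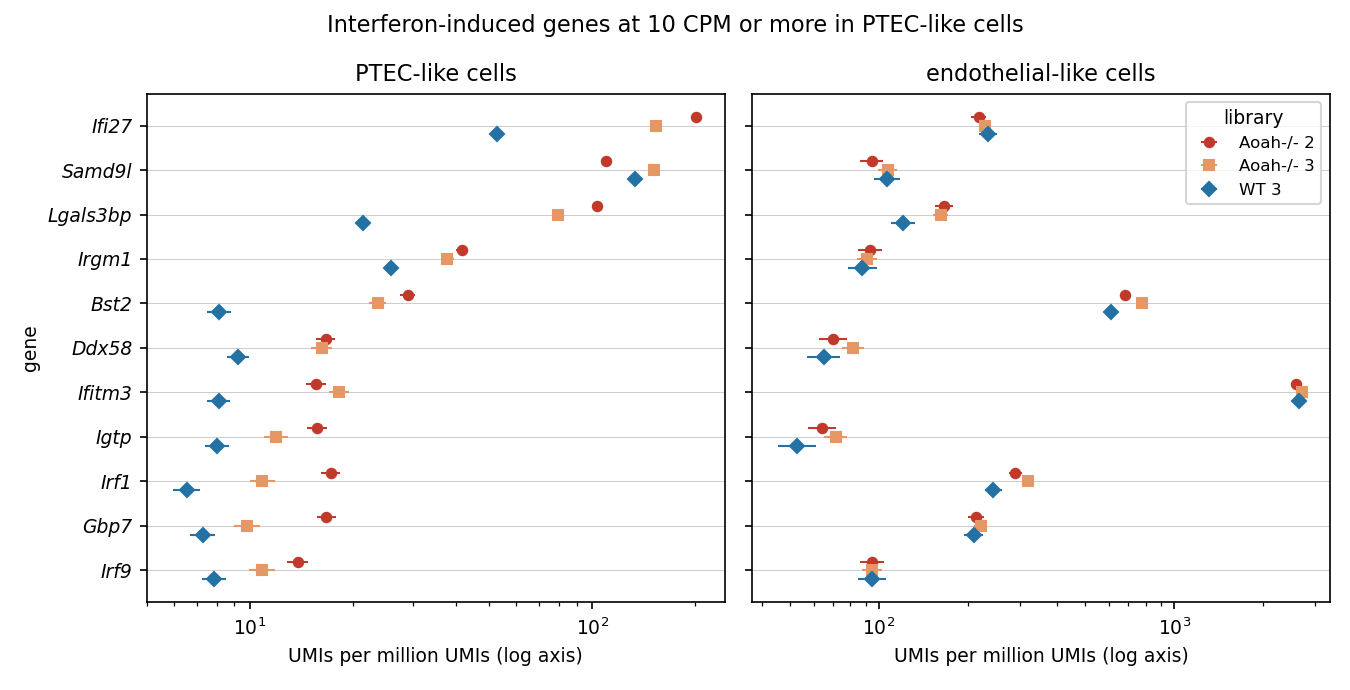
Level in each library of the 11 members with a mean of at least 10 CPM in PTEC-like cells, shown for PTEC-like (left) and endothelial-like cells (right) on log axes, with exact Poisson 95% intervals. In PTEC-like cells both *Aoah-/-* libraries lie above WT for 10 of the 11 genes, *Samd9l* being the exception, while in endothelial-like cells the 3 libraries lie close together, for example at 2589, 2703 and 2651 CPM for *Ifitm3*.

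Genes with a strong ISGF3 arm (sensors, IFIT proteins, the ISG15 system, the OAS family, *Rsad2*, *Mx1*, *Irf7*, *Stat2* and *Irf9*) summed to 85.1, 89.0 and 36.1 CPM in PTEC-like cells, a difference of 1.27 ± 0.05. The GTPases together with *Irf1*, a group with a strong interferon gamma arm, summed to 128, 105 and 64.9 CPM, a difference of 0.84 ± 0.21. The ratio of the second group to the first was 1.504 and 1.17 in the *Aoah-/-* libraries and 1.80 in WT. Both groups were therefore higher than in WT, and their ratio was about as far apart between the 2 *Aoah-/-* libraries as between *Aoah-/-* 2 and WT.

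At equal depth more PTEC-like cells held at least 1 UMI of the 42 genes in the *Aoah-/-* libraries. Each cell was thinned to 1000 UMIs, which left out 1984, 0 and 1848 cells with fewer UMIs, and cells used had median totals of 5336, 6402 and 6943 UMIs before thinning. The share with at least 1 such UMI was 43.5%, 42.7% and 25.4% (Clopper-Pearson 95% interval 24.4% to 26.3% in WT), and unthinned it was 72.3%, 87.4% and 62.6%. For *Ifi27* alone the thinned share was 16.1%, 13.5% and 5.08% and for *Lgals3bp* 8.07%, 7.05% and 2.03%. The mean number of member UMIs was 0.664, 0.658 and 0.339 per 1000 UMIs, and the tenth of the cells that held most carried 42.3%, 44.6% and 54.7% of them. At such low counts this share rises as the mean falls. It therefore does not show how widely the difference was spread over cells. Shares with at least 5 UMIs were 0.651%, 0.801% and 0.260%. In endothelial-like cells nearly all cells held a member UMI, 98.7%, 98.6% and 98.9%, at median totals of 3299.5, 3856 and 3361 UMIs. No class is known to lack these genes, and the lowest thinned shares, 26.1%, 34.8% and 20.9%, were those of distal convoluted tubule-like cells.

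**Figure D3:**
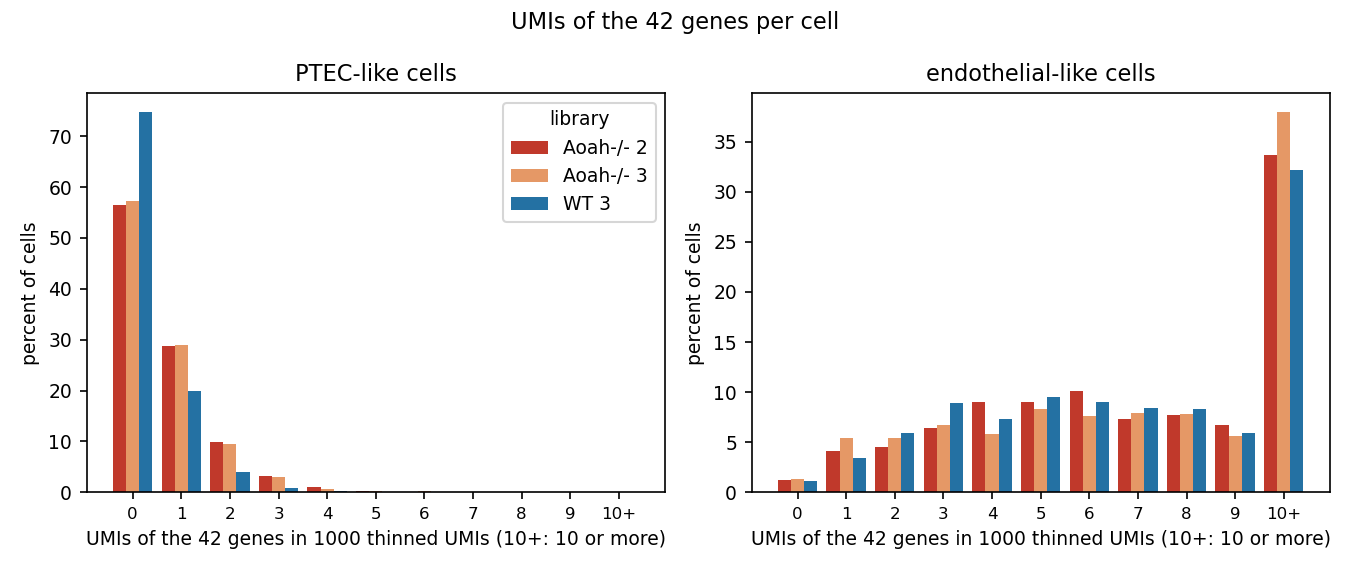
Percent of cells by their number of UMIs of the 42 genes among 1000 thinned UMIs, for PTEC-like (left) and endothelial-like cells (right), with 1 bar per library. Cells with no such UMI made up 56.5%, 57.3% and 74.6% of PTEC-like cells in *Aoah-/-* 2, *Aoah-/-* 3 and WT, while endothelial-like cells spread over the whole range in all libraries.

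The difference was present in each of the 5 PTEC-like clusters taken by itself. With the 5 clusters weighted by their UMIs in the WT library the sum was 664, 591 and 337 CPM, a difference of 0.90 in place of 0.99. Clusters 17 and 18 were led by *Slc5a2*, the glucose transporter of the first segment, and they had the highest levels: 981, 871 and 510.1 CPM (difference 0.86 ± 0.12) and 942, 923 and 535 CPM (0.80 ± 0.02). Clusters 0, 10 and 11 stood at 621, 548 and 331 CPM (0.82 ± 0.13), 498, 402 and 206 CPM (1.13 ± 0.22) and 625, 527 and 237 CPM (1.28 ± 0.17). *Lgals3bp* was higher in both *Aoah-/-* libraries in all 5 clusters, for example 91.4, 67.4 and 18.8 CPM in cluster 0 and 149, 119 and 49.6 CPM in cluster 18. *Ifi27* was too, with 163, 111 and 37.8 CPM in cluster 0 and 364, 261 and 167 CPM in cluster 17.

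Markers of other cell types were unevenly spread over the PTEC-like cells of the libraries. Most lists were higher in both *Aoah-/-* libraries than in WT, and fewer had WT highest. The 12 injured tubule markers, all detected in every library, summed to 1189, 1086 and 482 CPM in PTEC-like cells, and without cells that held any UMI of them the member sum was 535, 436 and 280 CPM, a difference of 0.80. That left 2054, 670 and 3542 cells, which were shallow and unequal in depth, with median totals of 1203, 3099 and 1614 UMIs. The 12 macrophage markers summed to 71.6, 57.2 and 32.3 CPM and the 13 endothelial markers to 14.8, 30.3 and 9.03 CPM, against 14010.0, 15871 and 14252 CPM and 10924, 11855 and 10615 CPM in the classes they define. The granulocyte markers summed to 105, 134 and 91.3 CPM, with *Ly6g* at 0. Monocyte markers summed to 103, 87.6 and 63.0 CPM, T lymphocyte markers to 22.4, 26.4 and 18.2 CPM and natural killer markers to 2.99, 3.77 and 1.39 CPM. Other lists had WT highest, with 85.5, 111 and 308 CPM for erythroid, 21.7, 13.6 and 37.6 CPM for B lymphocyte, 50.5, 61.0 and 103 CPM for cycling and 4.73, 8.09 and 10.4 CPM for fibroblast markers. Megakaryocyte markers, at 8.98, 6.82 and 10.7 CPM, were the only further list with WT highest. Without cells that held a UMI of any of the 8 immune genes, *Cd74* among them, the sum was 632, 538 and 301 CPM, a difference of 0.96. Mitochondrial UMIs made up 24.2%, 22.9% and 20.9% of this class, and with these out of the total the sum was 923, 835 and 426 CPM. Barcodes that the filters left out, with under 200 genes or over 50% mitochondrial UMIs, held 284, 253 and 162 CPM of the 42 genes. Their mitochondrial UMIs were counted in that total. Whether free RNA or contact with other cells contributed to the levels in PTEC-like cells was not tested.

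**Figure D4:**
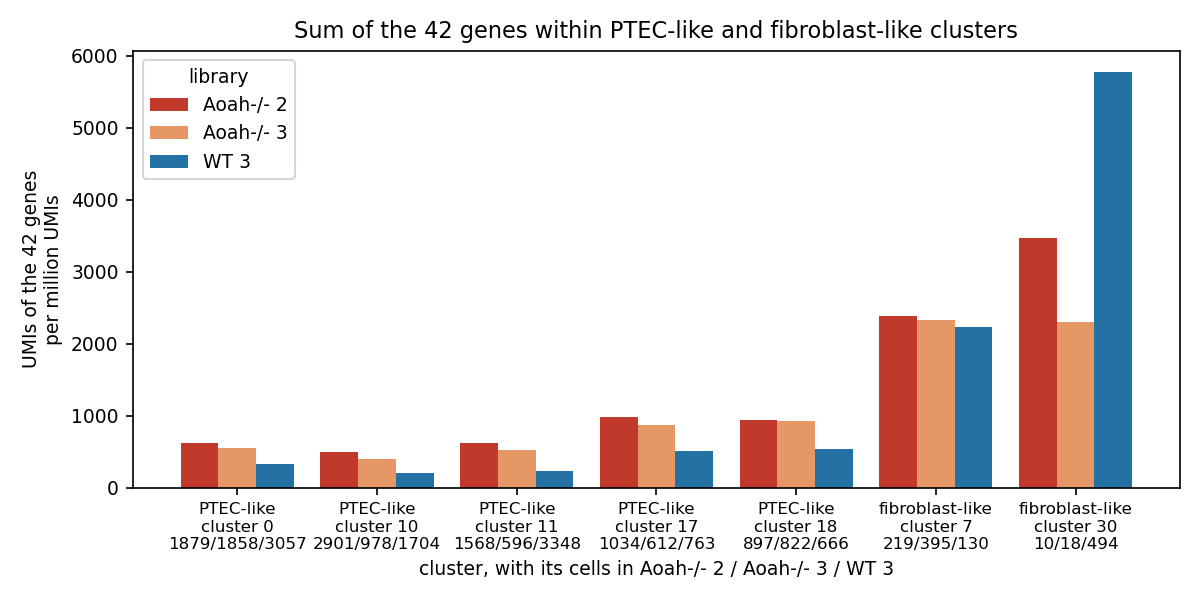
Sum of the 42 genes, in UMIs per 1000000 UMIs, within each PTEC-like and fibroblast-like cluster, with 1 bar per library and the cells per library under each cluster. WT is lowest in all 5 PTEC-like clusters, while the libraries are level in fibroblast-like cluster 7 and the WT library holds 494 of the 522 cells of fibroblast-like cluster 30.

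The other tubular segments lay on the same side of WT with smaller differences. Principal-like cells, which take up sodium and water in the collecting duct, summed to 769.8, 981 and 603 CPM (0.54 ± 0.25). There 6 of 17 members above 10 CPM were higher in both *Aoah-/-* libraries (0.97% of all genes) and 0 lower (0.883%). *Isg15* went from 5.65 CPM in WT to 35.5 and 51.9 CPM, and *Ifit1* from 2.83 to 9.31 and 47.4 CPM, with the *Aoah-/-* libraries far apart for *Ifit1*. *Irf1* did not share this, at 134, 125 and 139 CPM. In WT *Isg15* and *Ifit1* were under 10 CPM, and they passed that minimum through the *Aoah-/-* libraries, *Ifit1* through *Aoah-/-* 3. When cells with immune UMIs were left out, principal-like cells stood at 880, 631 and 626 CPM, so that *Aoah-/-* 3 then lay next to WT. Intercalated-like cells, which secrete acid or base, summed to 1035, 1079 and 922 CPM, with 3 of 21 members higher (*Ifitm3*, *Ifi27*, *Lgals3bp*; 0.823% of all genes) and *Ifit1* lower (0.762%). Distal convoluted tubule-like cells had 2 of 10 members higher (*Ifitm3* at 29.2, 47.3 and 14.1 CPM, *Lgals3bp* at 22.1, 23.3 and 11.6 CPM; 1.45% of all genes) and 0 lower (1.62%). In ascending limb-like cells, with 703, 663 and 537 CPM, 0 of 13 members met the ratio in either direction, where 1.81% of all genes were higher and 2.36% lower, and *Ifi27* stood at 128, 135 and 94.5 CPM. Urothelial-like cells, from the lining of the pelvis, went the other way, with 781, 919 and 1111 CPM and 1 of 15 members lower, *Ifitm3* at 229, 282 and 487 CPM (2.32% of all genes; 0 higher, 1.96%). The urothelial-like difference of -0.39 rested on the abundant members, being -0.06 without *Ifitm3*, *Ifi27* and *Bst2* and -0.01 as the median over members.

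Injured tubule-like cells did not share the difference of the other tubular classes. Their sum was 1561, 1722 and 1774 CPM (-0.11 ± 0.10), and of 30 members above 10 CPM, 9 were lower in both *Aoah-/-* libraries (1.2% of all genes) and 1, *Ifi44*, higher (1.87%). The lower members were mostly GTPases: *Iigp1* at 19.9, 17.7 and 64.6 CPM (-1.73 ± 0.11), *Gbp2* at 17.5, 35.6 and 76.1 CPM (-1.49 ± 0.70), *Irgm1* at 44.5, 45.0 and 83.7 CPM and *Gbp7* at 16.9, 18.0 and 32.8 CPM, with *Igtp* and *Ifi47*. *Ifit1*, *Ifit3b* and *Rsad2* were the others. *Irf7* (21.8, 23.1 and 17.4 CPM) and *Ifitm3* (206, 219.8 and 177 CPM) stood slightly above WT in both. IRG GTPases summed to 106, 103 and 229 CPM and GBP GTPases to 52.6, 77.2 and 141 CPM. These differences depended on how the class was drawn: at clustering resolution 2, where the class grew, 2 members in place of 9 were lower (1.66% of all genes) and the IRG sum was 149.6, 139 and 211 CPM. Without cells with immune UMIs the IRG sum was 145, 70.7 and 149 CPM, so that *Aoah-/-* 2 lay next to WT, while the GBP sum was 58.5, 44.8 and 117 CPM. In the WT library the tenth of thinned cells richest in member UMIs held 48.7% of them, against 33.7% and 33.5% in the *Aoah-/-* libraries.

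Endothelial-like cells, the class with the highest level, differed little between genotypes. The sum was 0.13 ± 0.07 on the log2 scale above WT, 39 members passed 10 CPM, and 1 of them was higher (1.86% of all genes), the low sensor *Dhx58* at 11.5, 12.5 and 6.75 CPM, with 0 lower (0.617%). Both *Aoah-/-* libraries were above WT for 30 of the 39 and below it for 2, at a median log2 difference of 0.17 against 0.01 over all genes. How many of all genes lay above or below WT in both was not counted. *Zbp1*, a sensor of Z-form nucleic acid, came next at 34.4, 43.8 and 24.2 CPM, followed by *Iigp1* at 264, 298 and 190.5 CPM. *Isg15* and *Ifi27* showed no such shift (247, 291 and 270.1 and 218, 229 and 234 CPM), and *Tgtp2*, which did not meet the ratio, was at 28.2, 33.9 and 43.3 CPM, though 73.7% to 75.9% of the 50 base words in the last 500 bases are shared between it and *Tgtp1*, so that counts of this pair are uncertain.

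Macrophage-like, T lymphocyte-like and natural killer-like cells were close to level, while B lymphocyte-like cells lay above WT in both *Aoah-/-* libraries. Macrophage-like cells summed to 2949, 2961 and 2739 CPM, and 1 of 36 members was higher, *Oasl1*, a repressor of *Irf7* translation, at 27.6, 25.8 and 12.3 CPM (3.25% of all genes), with 0 lower (0.424%). The member median was 0.20 against 0.17 over all genes. The libraries filled this class from different clusters: cluster 23 held 876, 125 and 1128 cells with median totals of 715, 2286 and 718 UMIs, and cluster 25 held 773, 1137 and 582 cells with 4442, 5070.0 and 4242 UMIs. Within them the sums were 2073, 1593 and 1814 CPM and 3127, 3021 and 2881 CPM. *Isg15* in macrophage-like cells was 179.8, 153 and 203 CPM and *Gbp3* 44.4, 43.1 and 57.1 CPM, both below WT, whereas *Stat2* was 23.6, 28.2 and 17.3 CPM, above it. T lymphocyte-like cells summed to 1952, 1938 and 1889.7 CPM, with 0 of 34 members higher (1.48% of all genes) and *Tgtp2* lower (0.753%). There *Isg15* was 162, 177 and 233 CPM. *Usp18*, which removes ISG15 from proteins and damps IFNAR signalling, was 14.1, 17.2 and 9.92 CPM. B lymphocyte-like cells summed to 1174, 1259 and 994 CPM, a difference of 0.29 ± 0.07, with a member median of 0.36 against 0.02 over all genes. Of 23 members 2 were higher (3.45% of all genes) and 0 lower (2.51%). The higher ones were *Gbp7* at 80.3, 36.7 and 16.6 CPM and *Lgals3bp* at 28.1, 28.3 and 13.4 CPM. Natural killer-like cells summed to 1324, 1269 and 1264 CPM. In them 3 of 26 members were higher, *Ifitm3*, *Usp18* and *Irf9* (8.19% of all genes), and 2 lower, *Bst2* and *Ifi47* (4.06%), on 144 to 177 cells per library.

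**Figure D5:**
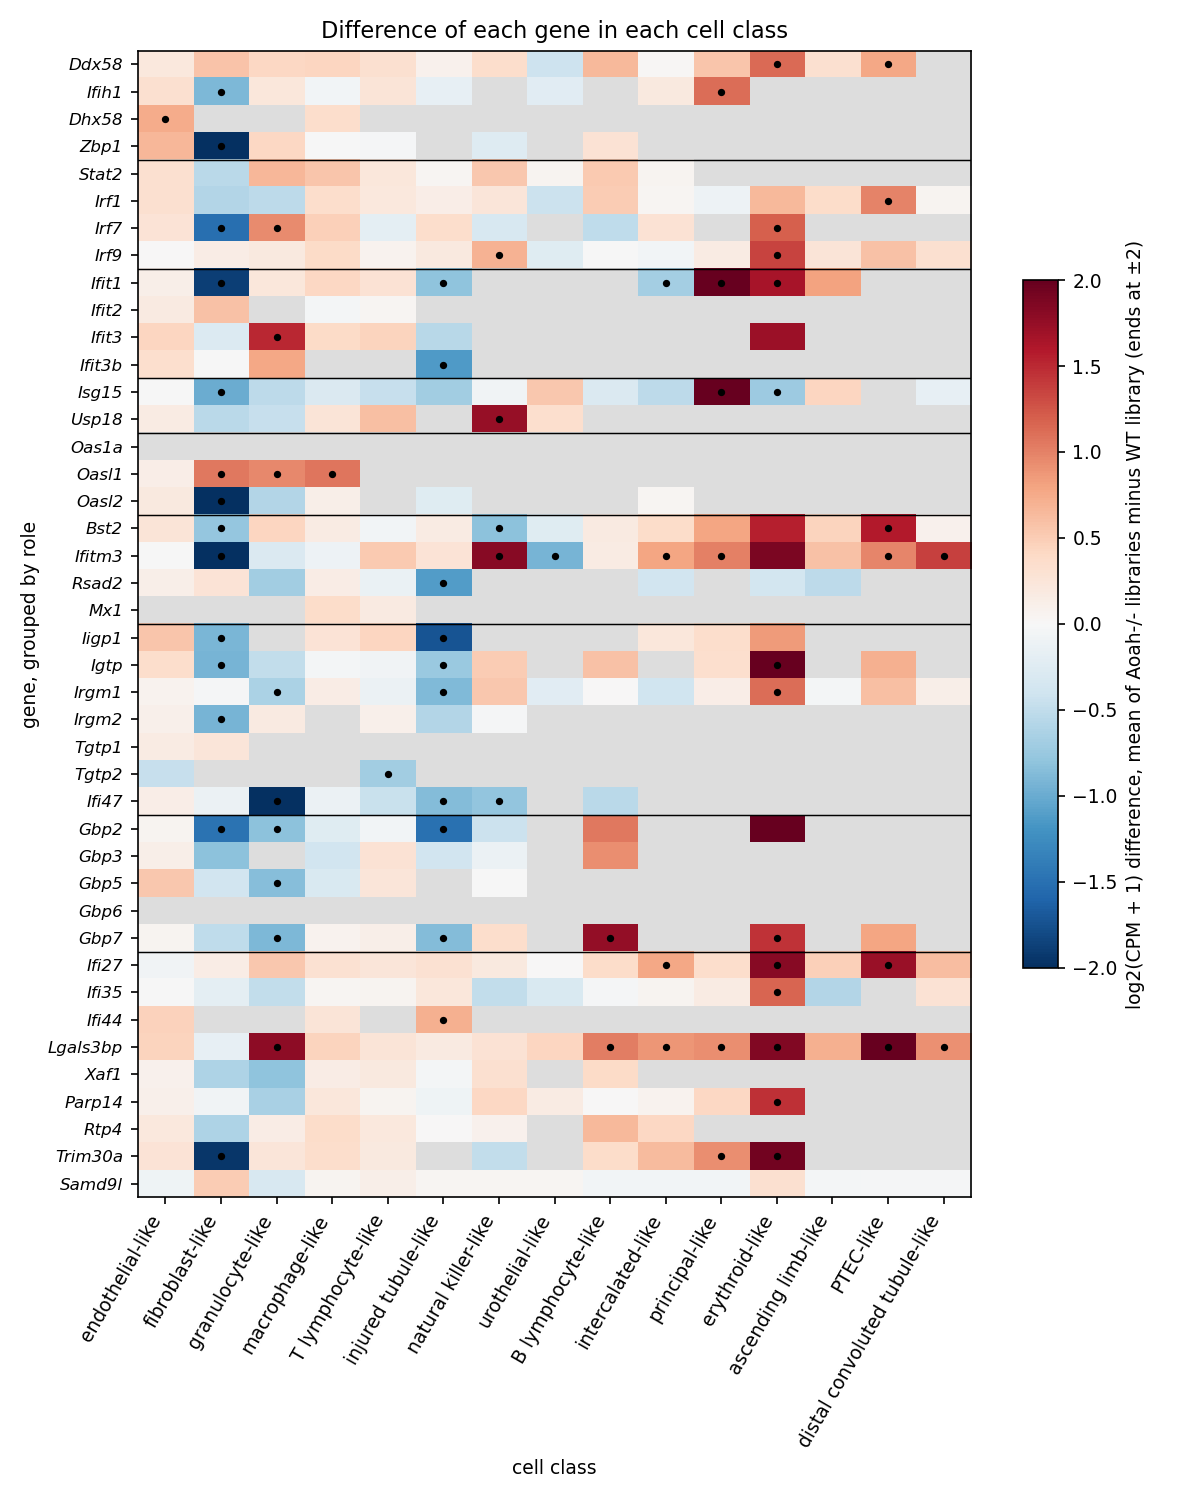
Log2(CPM + 1) difference of each of the 42 genes in each class, mean of the *Aoah-/-* libraries minus WT, grouped by role, with colours ending at ±2. A black point marks genes at least 1.5-fold higher or lower in both *Aoah-/-* libraries, and grey marks a mean under 10 CPM; *Lgals3bp* carries points on the higher side in 7 classes.

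Granulocyte-like, fibroblast-like and erythroid-like cells differed in ways that touched genes at large. In granulocyte-like cells 4 of 32 members were higher (12.1% of all genes), near the share of all genes, and 5 lower (3.01%). The lower members were the GTPases *Irgm1*, *Ifi47*, *Gbp2*, *Gbp5* and *Gbp7*, with *Ifi47* at 14.1, 11.4 and 53.9 CPM. *Irf7*, *Ifit3*, *Oasl1* and *Lgals3bp* were higher, *Ifit3* at 50.1, 30.3 and 13.5 CPM, and the WT library had 213 such cells. In fibroblast-like cells the sum was 2419, 2323 and 4832 CPM, with 13 of 36 members lower (10.4% of all genes) and 1 higher, *Oasl1* (13.6%). *Ifitm3* stood at 322, 399.7 and 1983 CPM there and *Oasl2* at 23.9, 25.7 and 110.2 CPM, while *Oasl1* was 11.2, 13.4 and 5.38 CPM and *Ifit2* 19.2, 19.8 and 12.6 CPM. The 12 fibroblast markers summed to 2910.5, 3764 and 13709 CPM in this class. The 8 mesothelial markers summed to 197, 79.0 and 7820 CPM and the 12 injured tubule markers to 20134, 15399 and 5871 CPM. In both *Aoah-/-* libraries the fibroblast list thus lay below the injured tubule list, so that the name of the class is uncertain there. The part of these marker differences in the result was not tested. Different clusters made up this class: cluster 30, led by *Dcn*, *Pi16* and *Igfbp6*, held 10, 18 and 494 cells, and cluster 7, led by *Mgp* and *Tagln*, held 219, 395 and 130. Within cluster 7 the sum was 2391, 2324 and 2232 CPM, with 2 members lower (*Tgtp1*, *Gbp2*) and 2 higher (*Ifit2*, *Ifit3*) out of 33, where 1.81% of all genes were lower and 3.49% higher, so that the lower sum of the class as a whole did not appear there. In erythroid-like cells 12 of 21 members were higher (10.6% of all genes) and *Isg15* lower (0.423%), with sums of 783, 1316 and 562 CPM. *Isg15* was 61.5, 67.4 and 108 CPM there, *Igtp* 10.6, 36.4 and 5.11 CPM and *Trim30a*, a brake on sensor signalling, 9.55, 22.1 and 3.41 CPM. The 13 endothelial markers in that class summed to 11.7, 311 and 37.1 CPM, which *Aoah-/-* 3 alone had high, as it had *Ifitm3* (25.5, 204 and 30.3 CPM).

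Across classes *Lgals3bp* was at least 1.5-fold higher in both *Aoah-/-* libraries in PTEC-like, principal-like, intercalated-like, distal convoluted tubule-like, B lymphocyte-like, granulocyte-like and erythroid-like cells. Its levels in macrophage-like cells, 184, 218 and 147 CPM, and endothelial-like cells, 166, 162 and 121 CPM, also put WT lowest, at smaller ratios. Of all genes 10.6% were higher in erythroid-like and 12.1% in granulocyte-like cells. The PTEC markers summed to 24398, 41105 and 32470 CPM in erythroid-like and 11580, 15358 and 10521 CPM in granulocyte-like cells. In B lymphocyte-like cells they summed to 6544, 8256 and 11460 CPM, with WT highest. Whether RNA from PTEC-like cells added to *Lgals3bp* in other classes was not tested. *Samd9l* was also the member that differed least between genotypes, by at most 0.51 on the log2 scale in any of the 15 classes, with 110.4, 119.7 and 119 CPM in principal-like, 112, 113 and 116 CPM in ascending limb-like and 105, 109 and 98.4 CPM in T lymphocyte-like cells. *Ifi35*, a partner of the transcription regulator NMI, was 12.3, 16.0 and 21.7 CPM in ascending limb-like cells, with WT highest, and 27.8, 33.0 and 25.9 CPM in injured tubule-like cells, with WT lowest. The pair *Ifit3* and *Ifit3b* shares 14.9% of such words, and their counts in a class are therefore not fully separate. *Igtp* and *Irgm2* overlap on the same strand, and *Gbp6* was counted under a single identifier of the 2 that carry its name.

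Of 54 other genes of the pathway (ligands, receptors, transducers, further sensors, inhibitors and interferon gamma targets), few met the ratio. In PTEC-like cells 14 reached 10 CPM and 0 of them were lower (0.748% of all genes). The receptor genes were level there, *Ifnar1* at 15.5, 15.5 and 14.3 CPM and *Ifngr1* at 22.4, 22.0 and 21.6 CPM. In the other 14 classes 17 to 26 pathway genes reached 10 CPM, and 0 to 3 of them were higher, where 0.823% to 13.6% of all genes were. In fibroblast-like cells 6 of 22 were lower (10.4% of all genes). Elsewhere 0 or 1 was lower, where 0.423% to 4.06% of all genes were. *Ifng* was carried by T lymphocyte-like cells at 279, 363 and 390.2 CPM and natural killer-like cells at 229, 238 and 212 CPM, and in T lymphocyte-like cells WT was highest. *Ifnb1* was barely detected, with 18, 8 and 33 UMIs over all kept cells, of which macrophage-like cells held 5, 4 and 23. The feedback inhibitor *Socs1* was 69.8, 85.0 and 76.6 CPM in T lymphocyte-like and 0.907, 1.69 and 0.534 CPM in PTEC-like cells. The interferon gamma target *Cxcl9*, a chemokine for T cells, was 136, 132 and 221 CPM in macrophage-like cells, with WT highest. *Cxcl10*, a related chemokine, was higher in both *Aoah-/-* libraries in endothelial-like cells (77.0, 99.9 and 47.5 CPM), ascending limb-like cells (122, 113 and 60.9 CPM) and fibroblast-like cells (394, 437 and 254 CPM), but level in PTEC-like cells (11.3, 11.4 and 10.2 CPM) and lower in granulocyte-like cells (37.9, 78.0 and 181 CPM). The fibroblast-like class was made up of different clusters in the libraries, and *Cxcl10* was not compared within them.

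Over all kept cells together the sum of the 42 genes was 1676, 1717 and 1181 CPM, a difference of 0.52 ± 0.02, and 8 of 31 members were higher (4.07% of all genes) and 0 lower (2.09%). Much of that difference went with the cell make-up of the libraries. PTEC-like cells, with their low level, gave 42.6%, 38.1% and 60.1% of the UMIs but 17.8%, 14.3% and 17.1% of the member UMIs, and endothelial-like cells 3.68%, 5.22% and 2.85% of the UMIs and 17.5%, 26.0% and 18.2% of the member UMIs. With every class weighted as in the WT library the sum was 1354, 1341 and 1181 CPM, a difference of 0.19 ± 0.01. These weights did not level the clusters within a class. Fibroblast-like cells, whose clusters differed between the libraries, held 4.77% of the WT UMIs and entered this sum at 2419, 2323 and 4832 CPM. Whether cell shares differed between kidneys or through preparation cannot be told apart here.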

How the data were processed

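Cells of whole FA-treated kidneys, perfused and digested with collagenase and DNase I, were captured per the labels with a 10x 3′ v2 kit. The deposited values are raw UMI counts per gene and barcode, made by the authors with Cell Ranger on mm10; the submitters' processing notes name version 3.1.0 and the header of the matrices 6.1.2, so the version is uncertain. Barcodes under 200 genes or over 50% mitochondrial UMIs were removed, and the remaining cells of the 3 libraries were normalised and clustered together with scanpy 1.11.5 and igraph 0.11.9 (2000 variable genes, 50 components, 15 neighbours, Leiden resolution 1), leaving out of the variable genes *Aoah*, the 42 members, the pathway list, MHC class II genes and *Cd74*. Clusters were named from marker lists (mean log2 of the 5 best markers at least 2, at least 3 markers 2-fold up, 1 marker among the 10 leading genes), with a rule for ties added after clusters were seen, and 27 of 32 clusters, with 87.4% of cells, were named. Scrublet called 2.41%, 0% and 1.35% of cells as doublets, and 0% is a failed call, so doublets were removed only as an alternative. Barcodes shared between libraries were kept.

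For each class and library, the UMIs of a gene were added up and divided by all UMIs of the class. A gene counted as higher or lower where both *Aoah-/-* libraries differed from WT at least 1.5-fold on CPM + 1. Only genes with a mean of at least 10 CPM over the 3 libraries were counted, so a gene could pass through high *Aoah-/-* levels alone. The counting was tested on simulated counts. Intervals are exact Poisson or Clopper-Pearson at 95%. No test was run, since WT had 1 library and so no replicate check. Members, pathway list and markers were chosen with earlier results of these data known. Named with values are the 2 highest members of each role, the 2 largest and 2 smallest differences of each class where both *Aoah-/-* libraries lay on one side of WT, and 7 pathway genes, 1 further gene of that rule being not reported here; others named to complete a count or a role were chosen after their values were seen. RefSeq promoters were matched by symbol. Alternatives were other cell filters, clustering settings, ratios, pseudocounts, level minimums, thinning depths and left-out libraries, cells and genes.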

Additional observations from a re-analysis of the deposited data

Results flagged for a closer look

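Of the 11 classes in which under 5% of all genes differed in either direction, 3 members met the ratio of 1.5 in both *Aoah-/-* libraries in opposite directions in different classes. How many of all genes did so was not counted, so this number cannot be read as particular to the members. *Ifit1* was higher in principal-like cells, by 2.94 on the log2 scale, and lower in injured tubule-like cells, at -0.81. The first value was 1.43 with *Aoah-/-* 2 alone and 3.66 with *Aoah-/-* 3 alone, and at clustering resolution 2 the second was -0.65 and no longer met the ratio. *Ifitm3* was higher in distal convoluted tubule-like cells, by 1.37, and lower in urothelial-like cells, at -0.92. *Gbp7* was higher in B lymphocyte-like cells, by 1.76, and lower in injured tubule-like cells, at -0.87, a value that was -0.28 at resolution 2 and did not meet the ratio there. In each case the difference between the classes was not tested.

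The barcodes left out by the cell filters, 4148, 5001 and 4870 of them, entered no comparison. Their members summed to 284 CPM in *Aoah-/-* 2 and 253 CPM in *Aoah-/-* 3, above the 162 CPM of WT.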

How the results depend on the processing

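The member sum kept its sign under every alternative tried in 12 of the 15 classes, though it came close to 0 in some of them: -0.0073 in urothelial-like cells (-0.39) as the median over members, 0.0029 in intercalated-like cells (0.20) without the 3 highest members and 0.0052 in natural killer-like cells (0.04) without *Aoah-/-* 2. In PTEC-like cells (0.99) it was 1.10 with the members kept among the variable genes, 0.84 as the median over members, 0.75 without the 3 highest members (*Ifitm3*, *Ifi27*, *Bst2*), 0.82, 1.13, 1.28, 0.86 and 0.80 in clusters 0, 10, 11, 17 and 18, 0.80 without *Ifi27*, 1.41 without *Samd9l*, 0.88 without *Lgals3bp*, 0.90 with clusters weighted as in WT and 0.80 without cells with injured tubule marker UMIs. Leaving out an *Aoah-/-* library gave 0.93 to 1.05 in PTEC-like, 0.08 to 0.18 in endothelial-like, -1.06 to -0.998 in fibroblast-like and -0.18 to -0.04 in injured tubule-like cells. Fibroblast-like cells gave -0.93 with at most 20% mitochondrial UMIs, -0.92 with at least 500 genes, -0.89 at one minimum UMI total, -1.11 without high Scrublet scores, -1.17 as a mean of cells, -0.52 as the median, -0.59 without the 3 highest members and 0.0786 in cluster 7. Injured tubule-like cells gave 0.0663 at resolution 2, -0.28 without the 3 highest members and 0.0135 without immune UMIs, IRG GTPases (-1.13) gave -0.55 at resolution 2 and -0.46 without immune UMIs, and GBP GTPases (-1.12) gave -0.64 at resolution 2. Granulocyte-like cells changed sign as the median over members, 0.17. At a ratio of 2 the counts were 3 higher in PTEC-like (0.423% of all genes), 0 higher in endothelial-like (0.469%), 7 lower in fibroblast-like (6.7%) and 3 lower in injured tubule-like cells (0.324%). Without a level minimum they were 26 higher in PTEC-like (2.08%) and 14 lower in injured tubule-like cells (1.79%), where resolution 2 gave 2 (1.66%). With 1 *Aoah-/-* library left out they ranged from 6 to 10 in PTEC-like, 1 to 3 in endothelial-like, 14 to 21 in fibroblast-like and 9 to 13 in injured tubule-like cells, where the shares of all genes were 2.3% to 2.89%, 3.13% to 3.49%, 12.2% to 13% and 2.16% to 2.61%. Endothelial-like cells had 0 at a pseudocount of 5 CPM (1.18%) and 2 at the 20% limit (2.65%), and fibroblast-like cluster 7 had 2 lower (1.81%). The thinned PTEC-like share differed by 17.7 points, by 12.7 at 500 UMIs and 21.8 at 2000 UMIs, and by 17.3 to 18.1 with 1 library left out. Over all kept cells the difference was 0.52, 0.55 over all barcodes, 0.19 with classes weighted as in WT, and 0.50 to 0.54 with 1 library left out. The cause of these shifts was not tested. Several alternatives were not run in ascending limb-like, distal convoluted tubule-like, erythroid-like and fibroblast-like cells, where a class had too few cells or was not named. Cluster, marker and gene removals, the immune genes for counts and role sums, and the mitochondrial total were chosen after seeing the data. No paired analysis was possible because the groups share only 1 replicate number. With 1 WT library, a difference between genotypes cannot be told apart from a difference between this library and others.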

Other observations

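Unnamed clusters held members at levels between those of the named classes. Cluster 19 stood at 5043, 4716 and 4131 CPM and cluster 22 at 4733, 4237 and 3811 CPM, the latter with 1392, 13 and 77 cells. Cluster 2 stood at 1669, 1624 and 909 CPM, with WT lowest, but held 210, 2890 and 89 cells. Its leading genes mixed ascending limb markers (*Umod*, *Slc12a1*) with macrophage markers (*C1qa*, *C1qb*).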
